A study of Zea mays with 22 samples.

Results

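The transcripts of 4 maize genes of protein synthesis were followed on arrays that set UV-B treated against control tissue. The genes were RPL27A, named for a protein of the large ribosomal subunit, tif5A, which encodes the translation factor eIF5A, and elfa2 and EF1A, which both encode elongation factor 1-alpha. They were taken by name, as all probes whose gene symbol or synonym in the platform annotation was one of these 4. This gave 5 probes of 5640 in the first table of arrays and 5 of 5760 in the second, for 4 of the 329 named genes. RPL27A (EST BE129978), tif5A (AI947864) and elfa2 (AW216264) had 1 probe each and EF1A had 2 (AW202492 and AI855174).

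Ribosomes build proteins from an RNA template with the help of initiation factors, which assemble the ribosome at the start codon, and elongation factors, which feed it charged tRNAs. Elongation factor 1-alpha carries each aminoacyl-tRNA to the ribosome and is among the most abundant proteins of plant cells. The factor eIF5A was first described in initiation, carries the modified amino acid hypusine, and helps the ribosome past peptide bonds that form slowly. UV-B light damages RNA and proteins as well as DNA, and crosslinks between RNA and ribosomal proteins are known from irradiated maize leaves.

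The label RPL27A is not settled by the annotation. The gene ID of its probe was not found in the reference gene table, where RPL27A is a synonym of a gene that is also listed as RPS27A and UBF9 and that has no probe on the arrays. The value is therefore given for the probe under its annotated name, and which ribosomal protein it measures is open in the annotation. The other 3 genes were found. Elongation factor 1-alpha comes from a family of closely similar genes in maize, and hybridisation of the EF1A and elfa2 probes to other members of that family was not tested.

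Total RNA was compared on 22 spotted arrays of 2 colours, 1 RNA in each channel. The first table held 14 arrays, namely seedling leaf (2 arrays), adult leaf (2), root (2), tassel (2) and immature ear (3) of plants given UV-B for 8 h against controls without it, with 2 arrays that set adult leaf bagged in CA against adult leaf bagged in PE, both on plants given UV-B, and 1 array of PE-covered leaf from plants with UV-B against plants without. Cellulose acetate film lets UV-B through and polyester film absorbs it, although the labels give only the letters. The second table held 4 regimes with 2 arrays each, 2 h high, 8 h high, 4 h medium and 8 h low, each set against its control, with no intensity or organ given in their labels. The maize line and plant age are not used here, and no label says whether the 2 arrays of a group came from separate plants. The p-values, SEs and intervals thus measure only a spread between arrays, pooled over the groups of a fit.

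Array 2 of each pair had its channels exchanged according to the labels. Which channel the deposited ratio divides by is not stated. A positive value is assumed to mean more RNA with UV-B, or more under CA than under PE. For groups that hold an exchanged array, main values are also given with its sign turned. The root and tassel pairs and 2 of the 3 immature ear arrays differed only by a constant. The seedling leaf pair did so on the 13331 spots compared, and 3463 spots were blank on 1 of its arrays. The remaining ear array was identical to a tassel array, so that these organs had 1 profile each and no test. Each of these profiles stands under both channel orientations, so its sign is not settled. Between 5541 and 16794 of 16928 spots held a value in the first table, and between 14364 and 15853 of 17296 in the second. The median SD among the 3 spots of a probe lay between 0.0313 and 0.0724 and between 0.0391 and 0.0628, on the log2 scale. Across all probes the 2 arrays of a group correlated at 0.805 in 2 h high, 0.575 in CA against PE, 0.232 in 4 h medium, 0.184 in 8 h high, -0.181 in adult leaf and -0.363 in 8 h low. The share of probes with the same sign on both arrays was 54.4% in 4 h medium, 46.5% in 8 h high, 42.4% in adult leaf and 32.9% in 8 h low. These 4 groups therefore have no settled direction. In the other groups agreement between arrays does not show which channel the ratio divides by.

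Most values of the 4 genes lay within 2-fold of their controls. Of 41 member values on the 9 distinct profiles of the first table, the lowest was a ratio of 0.66 and the highest 1.58, and 0 were a change of at least 2-fold. Of 32 values on the 8 regime arrays, the lowest was 0.445 and the highest 1.30, and 1 was at least 2-fold. Over all probes of an array the SD of the log2 ratio was 0.24 to 0.54 in the first table and 0.15 to 0.43 in the second. The share of all probes beyond 2-fold was not counted, so these counts do not set the 4 genes apart from other probes. In 12 comparisons 0 member probes passed the threshold, an adjusted p of 0.05 in limma after Benjamini-Hochberg adjustment over all probes tested. Where a level is low in such tissue, fewer cells of a type and less RNA per cell cannot be told apart. The probe of elfa2 was blank on all 8 regime arrays and is reported from the first table only.

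**Figure D1:**
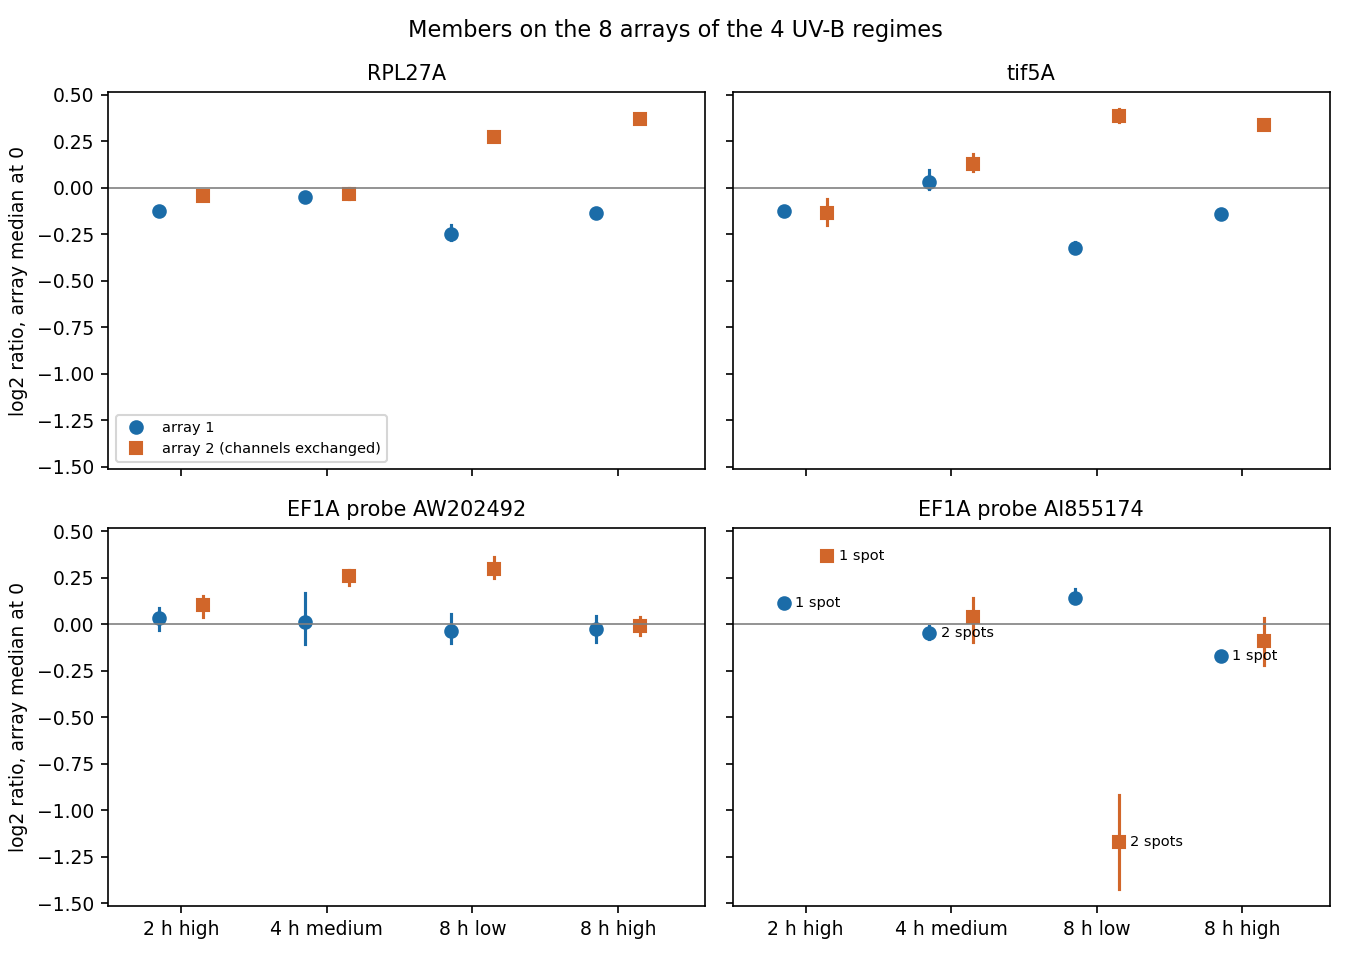
Log2 ratio of each member probe (vertical axis, array median at 0) on the 8 regime arrays, by regime along the horizontal axis. Points are the mean of up to 3 spots on 1 array, vertical lines run from the lowest to the highest spot, and labels mark points of fewer than 3 spots. RPL27A and tif5A lie below 0 on array 1 and above 0 on array 2 of both 8 h regimes, and EF1A probe AI855174 lies at -1.17 on array 2 of 8 h low.

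In the 2 h high regime, which asks what a short strong exposure did, the ribosomal protein and the translation factor lay slightly below 0 and EF1A slightly above, each on both arrays as deposited. RPL27A was at -0.12 and -0.05 on arrays 1 and 2, and tif5A at -0.13 and -0.14. EF1A was at 0.03 and 0.11 by probe AW202492 and at 0.12 and 0.37 by probe AI855174, the latter from 1 spot on each array. All 4 probes measured had the same sign on both arrays, or opposite signs with array 2 turned, and the 2 arrays of a probe differed by 0.0113 (tif5A) to 0.25 (EF1A by AI855174).

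None of these values passed in 2 h high, where 13.4% of the 5199 probes tested did (0 of 4 member probes). The fitted mean was -0.09 (SE 0.137, adjusted p = 0.761, limma) for RPL27A and -0.13 (SE 0.140, adjusted p = 0.613, limma) for tif5A. For EF1A it was 0.07 (SE 0.133, adjusted p = 0.804, limma) by AW202492 and 0.24 (SE 0.170, adjusted p = 0.403, limma) by AI855174. The 95% confidence intervals ran from -0.36 to 0.19 for RPL27A, from -0.42 to 0.15 for tif5A and from -0.20 to 0.34 and from -0.10 to 0.59 for the EF1A probes, so that a change of 2-fold lay outside each of them. With array 2 turned the means were -0.04 for RPL27A, 0.0056 for tif5A, and -0.04 and -0.13 for the EF1A probes (adjusted p = 0.999 each, limma). With array weights the AI855174 value of 0.24 passed (adjusted p = 0.00143, limma), a setting under which 2685 probes passed in place of 698. Under the other settings its adjusted p ran from 0.0989 to 0.999.

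In the 8 h high regime RPL27A and tif5A took opposite signs on the 2 arrays as deposited. RPL27A was at -0.14 on array 1 and 0.37 on array 2, and tif5A, which acts at another step of translation, was at -0.14 and 0.34. The 3 spots of each probe lay close together, within 0.36 to 0.38 for RPL27A and 0.32 to 0.34 for tif5A on array 2, so that the arrays differed by far more than the spots. EF1A stayed near 0 on both arrays, at -0.03 and -0.01 by AW202492 and at -0.17 (1 spot) and -0.09 by AI855174.

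In 8 h high 3.63% of 5210 probes passed and 0 of 4 member probes did. The fitted means were 0.11 for RPL27A (SE 0.137, adjusted p = 0.940, limma) and 0.10 for tif5A (SE 0.140, adjusted p = 0.955, limma), and -0.02 and -0.13 for the EF1A probes (adjusted p = 0.997 and 0.951). With the exchanged arrays turned, RPL27A stood at -0.25 (adjusted p = 0.993) and tif5A at -0.24, which also did not pass. Against 2 h high, 8 h high was 0.20 higher for RPL27A (SE 0.194, adjusted p = 0.580, limma), 0.23 higher for tif5A (SE 0.198, adjusted p = 0.520, limma), 0.09 lower for EF1A by AW202492 and 0.37 lower by AI855174 (SE 0.240, adjusted p = 0.354, limma). That comparison called 10.8% of 5061 probes, and 0 of 4 member probes.

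In the 8 h low regime all 4 probes measured changed sign between array 1 and array 2 as deposited, and with array 2 turned all 4 kept it. RPL27A was at -0.25 and 0.27, and tif5A at -0.32 and 0.38. EF1A was at -0.04 and 0.29 by AW202492 and at 0.14 and -1.17 by AI855174. The gap between the arrays was 0.52 for RPL27A and 0.71 for tif5A as deposited, and 0.0272 and 0.061 with array 2 turned. Over all probes 32.9% kept their sign between these arrays, against 75.2% in 2 h high, 54.4% in 4 h medium and 46.5% in 8 h high. Of the 4 member probes, 4 kept it in 2 h high, 3 in 4 h medium, 2 in 8 h high and 0 in 8 h low. Turning array 2 exchanges kept and changed signs, so the counts with it turned, 0, 1, 2 and 4, follow from these.

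The value of -1.17 for EF1A probe AI855174 was the 1 member value beyond 2-fold. It rested on 2 spots, at -1.42 and -0.92, and stood at the 0.608th percentile of the probes on that array. The print block that holds the probe had a median 0.48 below that of the array, and relative to its block the value was -0.69. The other EF1A probe stood at 0.29 on the same array, in a block whose median was 0.35 above the array's, and at -0.05 relative to it. The 2 probes of EF1A lay on opposite sides of 0 on both 8 h low arrays relative to the array median and on the same side relative to their blocks, at 0.0090 and 0.08 on array 1.

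In 8 h low 0.224% of 4906 probes passed and 0 of 4 member probes did. EF1A was at -0.51 by AI855174 (SE 0.170, 95% confidence interval from -0.86 to -0.17, adjusted p = 0.166, limma) and at 0.13 by AW202492 (SE 0.133, adjusted p = 0.678, limma). The SE of a probe is shared by the 4 regimes and drawn toward that of all probes. The interval of AI855174 therefore does not measure the gap between its 8 h low arrays, at 0.14 and -1.17. RPL27A and tif5A had fitted means of 0.01 and 0.03, with intervals from -0.27 to 0.29 and from -0.25 to 0.32. Without array 1 of 8 h low, AI855174 was at -1.24, and without array 2 it was at 0.21. Each of these fits leaves 1 array in the regime, so neither value has a spread of its own. With the exchanged arrays turned it was at 0.66 (adjusted p = 0.336), RPL27A at -0.26 (adjusted p = 0.389) and tif5A at -0.35 (adjusted p = 0.350).

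In the 4 h medium regime 3 of the 4 probes lay close to their controls on both arrays. RPL27A was at -0.05 and -0.03, and tif5A at 0.03 and 0.13. EF1A was at 0.01 and 0.26 by AW202492 and at -0.05 and 0.04 by AI855174. Each array of every probe but that of AW202492 on array 2 lay within 0.13 of 0, and no probe passed, with fitted means of -0.04, 0.08, 0.13 and -0.0045 (adjusted p from 0.994 to 0.995, limma). With array 2 turned the means were -0.0077 for RPL27A, -0.05 for tif5A, and -0.12 and -0.04 for EF1A by AW202492 and AI855174. In 4 h medium 0.284% of 5287 probes passed and 0 of 4 member probes did.

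The 2 h high, 4 h medium and 8 h low regimes ask whether shorter and stronger exposures act like longer and weaker ones, and across them the translation genes gave no difference past the threshold. The F test over the 3 regimes called 6.03% of 4757 probes and 0 of 4 member probes. Its smallest adjusted p among them was 0.142, for EF1A probe AI855174, which was also the 1 member probe with an unadjusted p under 0.05. Between 2 h high and 8 h low this probe differed by 0.75 (SE 0.240, 95% confidence interval from 0.27 to 1.24, adjusted p = 0.0606, limma), where 4.72% of 4771 probes passed and 0 of 4 member probes did. Without array 1 of 2 h high the difference was 1.07, without either array of 4 h medium it was 0.75, and without array 1 of 8 h low it was 1.48. Without array 2 of 8 h low, which holds the value of -1.17, it was 0.03. Each of these fits leaves 1 array in a regime. With the exchanged arrays turned the difference was -0.78 (adjusted p = 0.945, limma).

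For the remaining members the same difference was -0.10 for RPL27A, -0.16 for tif5A and -0.06 for EF1A by AW202492, with adjusted p from 0.737 to 0.908 (limma). Between 2 h high and 4 h medium, where 6.63% of 5159 probes passed and 0 of 4 member probes did, the differences ran from -0.21 for tif5A to 0.25 for EF1A by AI855174. Between 4 h medium and 8 h low limma called 0 of 4867 probes (0%), with 212 at an unadjusted p under 0.05. There AI855174 differed by 0.51 (SE 0.240, adjusted p = 0.999, limma) and the other members by -0.05 to 0.05. Between 8 h high and 8 h low, which differ in intensity at 1 duration, 0.554% of 4872 probes passed and 0 of 4 member probes did, with differences from -0.15 for EF1A by AW202492 to 0.38 by AI855174.

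**Figure D2:**
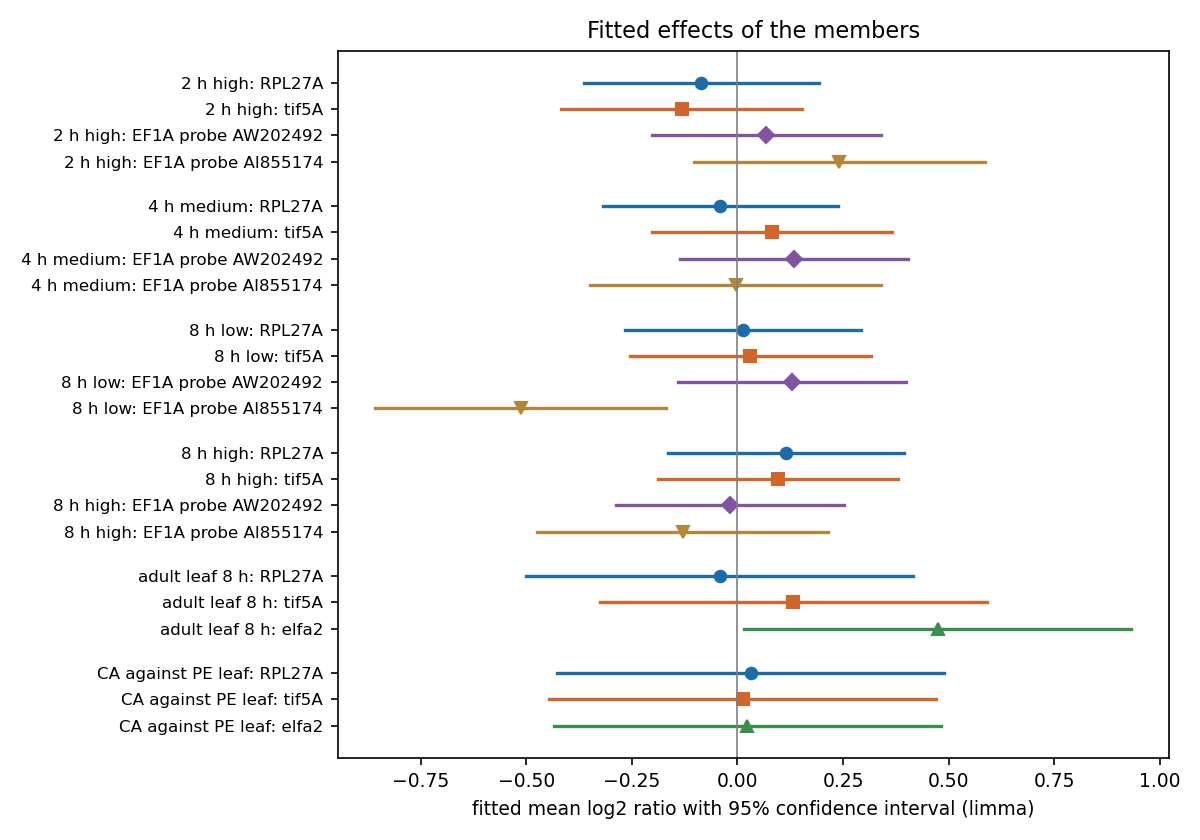
Fitted mean log2 ratio of each member probe tested (horizontal axis) with its 95% confidence interval from limma, for the 4 regimes and the 2 leaf comparisons. Intervals use a spread pooled over the groups of a fit. Most cover 0, and the exceptions are EF1A probe AI855174 in 8 h low at -0.51 and elfa2 in adult leaf at 0.47, both with an adjusted p above 0.05.

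In adult leaf after 8 h of UV-B, elfa2 was farthest from 0 among the 3 member probes with a value on both arrays. It stood at 0.28 on array 1, from 1 spot, and at 0.66 on array 2, from 3 spots between 0.64 and 0.69. RPL27A was at -0.08 and -0.0069 and tif5A at 0.07 and 0.19. EF1A had a value on array 1 only, at -0.24 by AW202492 and 0.36 by AI855174, so that the 2 probes of this gene lay on opposite sides of 0. On that array AI855174 was farther from 0 than elfa2. Array 2 held a value on 32.73% of its spots, and the SD over its probes was 0.54, against 0.24 on array 1. The elfa2 value of 0.66 stood at the 88.7th percentile of the probes on array 2. As deposited, the values of elfa2 on the 2 arrays were each above both values of RPL27A and of tif5A.

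The adult leaf fit tested 3 of the 5 member probes, since only 1962 probes had a value on all 4 leaf arrays, and 0 of the 3 passed, against 1.58% of all probes tested. For elfa2 the mean was 0.47 (SE 0.233, 95% confidence interval from 0.016 to 0.93, unadjusted p = 0.0425, adjusted p = 0.637, limma). RPL27A was at -0.04 (adjusted p = 0.997) and tif5A at 0.13 (adjusted p = 0.980), with intervals from -0.50 to 0.42 and from -0.33 to 0.59. With array 2 turned elfa2 was at -0.19 (adjusted p = 0.702), RPL27A at -0.03 and tif5A at -0.06. Without array 1 and without the orientation term, elfa2 was at 0.66 (adjusted p = 0.0215, limma), a setting under which 493 probes passed in place of 31.

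Between leaves under CA bags, whose film passes UV-B, and leaves under PE bags no member probe tested differed past the threshold. RPL27A was at -0.16 and 0.23, tif5A at 0.06 and -0.04, and elfa2 at -0.09 and 0.14, each changing sign between the arrays as deposited. EF1A was at -0.12 and -0.18 (1 spot) by AW202492, the 1 probe of 4 with the same sign on both, and at 0.20 on array 1 by AI855174. When array 2 is turned, RPL27A, tif5A and elfa2 each have the same sign on both arrays and AW202492 does not. The fitted means of 0.03 for RPL27A, 0.01 for tif5A and 0.02 for elfa2 did not pass (adjusted p = 1.000 each, limma), against 3.62% of 1962 probes, and the interval of RPL27A ran from -0.43 to 0.49. With array 2 turned RPL27A was at -0.19, tif5A at 0.05 and elfa2 at -0.11 (adjusted p = 1.000 each, limma). On the single array of PE-covered leaves, from plants with UV-B against plants without, the probes lay between -0.20 for RPL27A and 0.23 for EF1A by AI855174, with tif5A at -0.01 and elfa2 at 0.04.

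**Figure D3:**
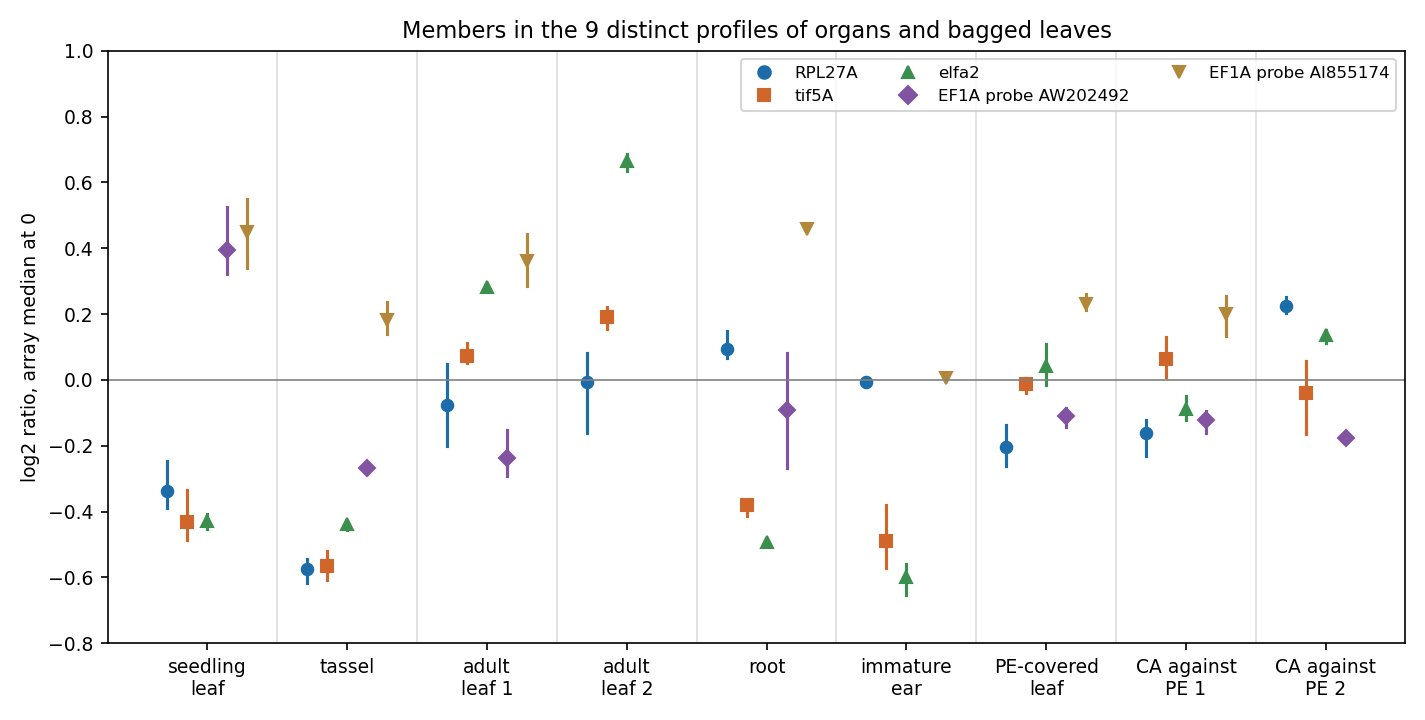
Log2 ratio of each member probe (vertical axis, array median at 0) on the 9 distinct profiles of organs and bagged leaves (horizontal axis). Points are the mean of up to 3 spots of 1 array and vertical lines run from the lowest to the highest spot. RPL27A, tif5A and elfa2 lie at -0.34 or lower in seedling leaf and tassel, and tif5A and elfa2 at -0.38 or lower in root and immature ear.

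Among the organs with 1 profile, tif5A and elfa2 were below 0 in all 4 and RPL27A in 3 of 4 as deposited. The columns used for seedling leaf and immature ear are those of exchanged arrays. With the sign of these turned, tif5A and elfa2 were below 0 in 2 of 4 organs and RPL27A in 1. These counts depend on which column was used. Each profile is deposited under both orientations, so any of the 4 organs could be turned. In seedling leaf RPL27A was at -0.34, tif5A at -0.43 and elfa2 at -0.43, or at 0.34, 0.43 and 0.43 when turned. In tassel they stood at -0.58, -0.56 and -0.44, or at 0.58, 0.56 and 0.44 from its exchanged array when turned. That profile is also deposited as an immature ear array and was credited to tassel, under which it stands on both arrays, so which of the 2 organs it measures is not settled. In both organs their spots did not reach 0 as deposited, the highest being -0.25 for RPL27A in seedling leaf.

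In root and immature ear, which soil and husks keep from direct light, the 3 probes divided. In root tif5A was at -0.38 and elfa2 at -0.49, while RPL27A was at 0.09. From the exchanged root array, turned, they are at 0.38, 0.49 and -0.09. In immature ear tif5A was at -0.49 and elfa2 at -0.60, the lowest member value of the first table, and RPL27A was at -0.0072. Turned, the values in immature ear are 0.49, 0.60 and 0.0072. RPL27A was the nearest of the 3 to 0 in both organs, which turning a profile cannot alter. Its spots did not overlap those of the other 2 probes. The spots of elfa2 and tif5A were apart in root and overlapped in immature ear.

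In tassel 1.28% of the probes with a value lay below RPL27A, 1.65% below tif5A and 5.33% below elfa2. In seedling leaf the same shares were 18.1%, 11.4% and 11.6%, in root 59.9%, 9.26% and 4.51%, and in immature ear 49.4%, 13.1% and 8.11%. A log2 ratio of -0.43 in seedling leaf was thus nearer the middle of its array than one of -0.44 in tassel. All 3 probes lie in print block 7 of the first table, whose median was 0.21 below that of the array in seedling leaf and 0.23 below it in tassel, and 0.03 below and 0.04 above it in root and immature ear.

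Relative to that block the 3 probes were at -0.13, -0.22 and -0.22 in seedling leaf and at -0.35, -0.34 and -0.21 in tassel. In root and immature ear tif5A stood at -0.35 and -0.53 and elfa2 at -0.46 and -0.64 relative to the block. Setting block medians to 0 thus kept the sign of each of these values and made them smaller in seedling leaf and tassel. With 1 profile an organ, and with the direction of its ratio unsettled, none of these values was tested.

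The EF1A probes lay on other blocks and took other values. In seedling leaf both were above 0, at 0.39 by AW202492 and 0.45 by AI855174, in blocks whose medians were 0.29 and 0.35 above that of the array. Relative to their blocks both were at 0.10. In tassel they were at -0.27 and 0.18, in root at -0.09 and 0.46 (1 spot), and in immature ear AW202492 was blank and AI855174 at 0.0058 (1 spot). Across the first table AI855174 was above 0 on all 7 profiles where it had a value, with a median of 0.23. Relative to its block or without centring it was at -0.12 or -0.16 in immature ear. With exchanged arrays turned it was above 0 on 5 of 7, at -0.45 in seedling leaf and -0.0058 in immature ear. That count depends on the columns used, since the exchanged arrays of tassel and root would turn it to -0.18 and -0.46. Probe AW202492 was below 0 on 6 of 7, with a median of -0.12, and without centring it was at 0.04 in PE-covered leaf.

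**Figure D4:**
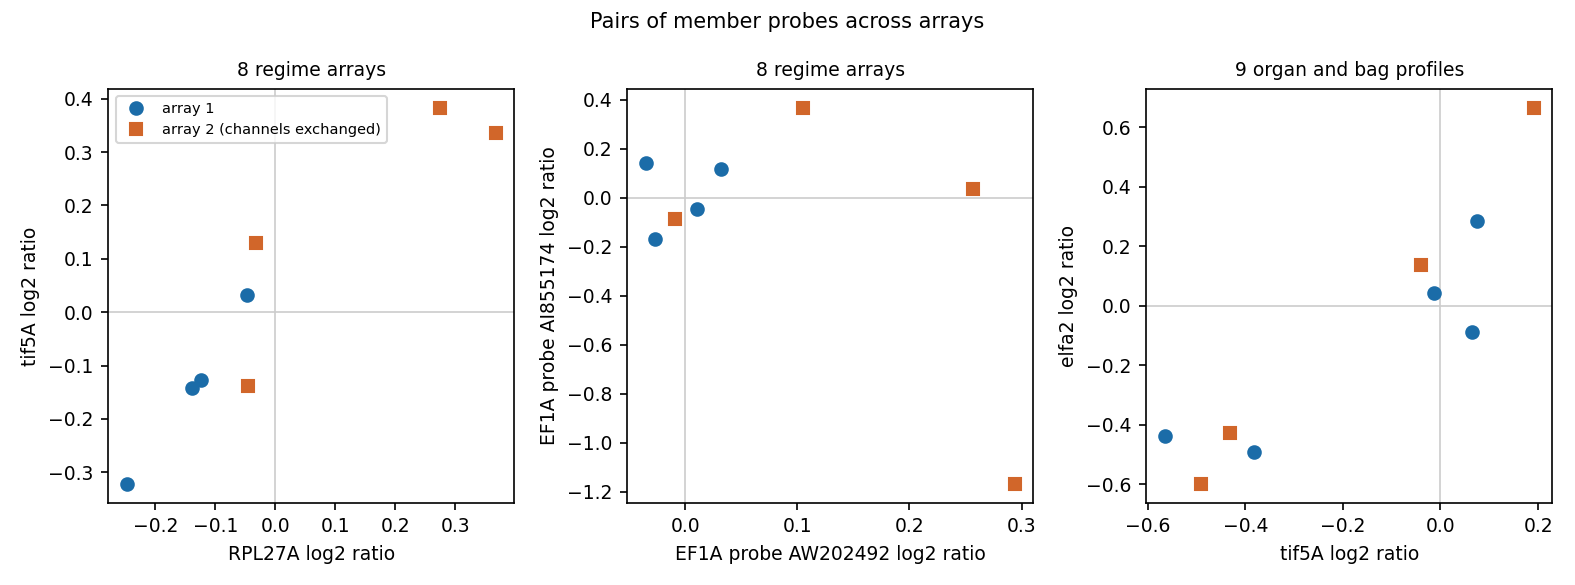
Log2 ratios of pairs of member probes, 1 point per array, for RPL27A with tif5A and for the 2 EF1A probes on the 8 regime arrays, and for tif5A with elfa2 on the 9 organ and bag profiles. Both axes give log2 ratios centred on each array's median, circles are arrays numbered 1 and squares arrays numbered 2, whose channels are exchanged per the labels. RPL27A and tif5A rank the arrays alike (Spearman's rho 0.905), and 1 array at -1.17 lies apart from the rest in the EF1A panel.

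RPL27A and tif5A had similar profiles over the 8 regime arrays, with a Pearson correlation of 0.936 and a Spearman correlation of 0.905. They had the same sign on 6 of 8 arrays and differed in sign on both 4 h medium arrays. Without the 2 arrays farthest from the median of RPL27A the correlation was 0.861 over 6 arrays. Over all 8 it was 0.881 with block medians set to 0 and 0.872 with exchanged arrays turned. Turning an array changes the sign of both probes on it, so that setting can alter the correlation only through the means of the probes. Of 4727 other probes with a value on all 8 arrays, tif5A ranked 17 in likeness to RPL27A, and 4.65% had a correlation with RPL27A of 0.8 or more. The 8 arrays share 4 groups and 2 channel orientations, and both probes were highest on array 2 of the 8 h regimes, so the correlation is given as a description.

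Between tif5A and elfa2 the correlation was 0.914 over the 9 profiles of the first table (Spearman 0.850, 0.902 without the 2 farthest profiles), and elfa2 ranked 12 of 1798 probes. It was 0.919 with block medians set to 0, and 0.882 with exchanged arrays turned, which again turns both probes together. The same print block holds both. RPL27A, in that block too, correlated with tif5A at 0.419 (Spearman 0.333) and at 0.00034 without the 2 farthest profiles. On the regime arrays RPL27A and tif5A lie in different blocks, 4 and 8. The difference between the correlations of the 2 tables was not tested.

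The likeness of the 2 EF1A probes differed between the 2 ways of centring. On the regime arrays AW202492 lies in print block 8 and AI855174 in block 3. Relative to the array medians, over the 8 regime arrays, their Pearson correlation was -0.546 and the Spearman correlation -0.119, and without the 2 arrays farthest from the median of AI855174 it was 0.20. They had the same sign on 5 of 8 arrays. With block medians set to 0 the Pearson correlation was 0.656, the Spearman correlation 0.786 and the sign the same on 7 of 8 arrays. That setting also moved the Pearson correlation of AW202492 with tif5A from 0.567 to -0.713 and with RPL27A from 0.374 to -0.625. The cause of these changes was not tested. Probe AI855174 had all 3 spots on 3 of those arrays, and AW202492 on all 8. The median spot SD of AI855174, 0.122, was the highest of the members there, against 0.0605 for AW202492, 0.0309 for tif5A and 0.0188 for RPL27A.

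Among named genes the profile most like RPL27A over the 8 regime arrays was tif5A, followed by Lsi6, a silicon channel of the aquaporin family (0.923), and eno1, which encodes the glycolytic enzyme enolase (0.919). Those most like tif5A were Lsi6 (0.941), RPL27A (0.936) and grp1 (0.923). For EF1A they were PG14 (0.955), mir3 (0.943) and yptm3 (0.942) by AW202492, and LOC542286 (0.948), GLB1 (0.906) and LOC541865 (0.905) by AI855174. These are Pearson correlations over 8 arrays among 342 or 343 named probes of 4728. Over the 9 organ and bag profiles elfa2 was nearest to pdi2, a protein disulfide isomerase (0.947), SE1B (0.919) and tif5A.

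The wider protein synthesis list held 12 genes on 16 probes, adding elfa3 of the elongation factor 1-alpha family, tif1, EIF5 and the ribosomal proteins rpl29, rpl39, rps6-2, rpp1a and RP-P0. In the 4 regimes 13 of its probes were tested each time, and 0 rose and 0 fell in any of them. The median log2 ratio of the list was 0.01 in 2 h high, 0.03 in 4 h medium, -0.09 in 8 h low and 0.04 in 8 h high, against -0.0039, -0.0054, -0.02 and 0.0019 over all probes tested. In adult leaf and in CA against PE the 3 member probes were the only ones of the list tested, so that the list adds nothing there.

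The list members farthest from 0 also did not pass. In 8 h low EIF5, which promotes GTP hydrolysis in initiation, was at -0.33 (SE 0.136, adjusted p = 0.256, limma), with -0.19 and -0.47 on its arrays. There 1 of the 2 probes of elfa3 was at -0.28 (SE 0.135, adjusted p = 0.315, limma), with -0.27 and -0.30. In 8 h high the ribosomal protein rpl39 was at 0.35 (SE 0.136, adjusted p = 0.225, limma), with 0.62 and 0.07, and it lay 0.59 above 8 h low (adjusted p = 0.208, limma). In 8 h low EIF5 and that probe of elfa3 were thus below 0 on both arrays as deposited, while the other elfa3 probe was at -0.22 and 0.04.

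On the single profiles the rest of the list lay on both sides of 0 in each organ. In tassel its 10 probes with a value lay between -0.22 for tif1 and 0.26 for elfa3, above RPL27A, tif5A and elfa2. With block medians set to 0, EIF5 at -0.45 was below all 3 and 1 probe of RP-P0 at -0.28 below elfa2. In root they lay between -0.37 for elfa3 and 0.54 for RP-P0. In immature ear 4 had a value, with RP-P0 at -0.44 and -0.42, rpl29 at 0.14 and tif1 at 0.30. In seedling leaf, where EIF5 was at -0.61, they reached 0.69 for 1 probe of elfa3 while the other was at -0.43. The 3 probes of RP-P0, a protein of the ribosomal stalk, were at 0.58, -0.53 and 0.38 there, the last with spots from -0.09 to 0.68. Relative to their print blocks they were at 0.52, -0.15 and 0.03. Probes of 1 gene thus lay on both sides of 0 under either centring, less far apart relative to their blocks. The remaining list probes lie in other print blocks than RPL27A, tif5A and elfa2.

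Marker genes were counted beside these values. Ratios hold no levels, so the labelled organs could not be checked against them. Among 8 probes of 7 leaf mesophyll and bundle sheath genes, 1 fell in 8 h low and 2 in 8 h high, with list medians of -0.11 and -0.19. Over all probes tested 4 of 4906 fell in 8 h low and 87 of 5210 in 8 h high. The endosperm and embryo list held only 2 seed globulin genes. Of its 4 probes 2 rose in 2 h high, where 567 of 5199 rose over all probes. No probe matched the root list. The part of these markers in the values of the translation genes was not tested. Pollen and anther markers gave 0 calls on 3 probes in each regime.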

How the data were processed

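The deposited tables give a log2 ratio of both channels for each spot, per the file headers and values. Background correction, normalization, filters and the direction of the ratio are not given in the sources used here. On 8 arrays with at least 30 repeated values, 13.79% to 43.08% of these matched log2 ratios of whole numbers (natural log, at most 5.88%). The members and gene lists were chosen with earlier results of these data known.

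Every 3 consecutive spots were averaged as 1 probe, print position was inferred as 8 blocks, and arrays were centred on their medians. Arrays repeating a profile within 1e-06 were used once (seedling leaf from its less filled column), so planned tests of seedling leaf, tassel, root and ear could not be made. The 4 regimes, and adult leaf with CA against PE, were fitted over all probes in limma 3.58.1 (R 4.3.3; lmFit, eBayes) with a term for channel orientation. Residual degrees of freedom were 3 (prior 31.7) and 1 (infinite prior, so 1 SE for all probes). Genes named are the members, the protein synthesis list and the 3 named genes most like each member over the regime arrays; those like elfa2 were added afterwards over the 9 profiles. EIF5, tif1 and RP-P0 were listed by reading their symbols. Of 329 named genes 314 were in the RefSeq annotation (Zm-B73-REFERENCE-NAM-5.0), taken for naming alone. Simulated data had normal noise of the same SD for all probes and arrays, and the same change on both arrays of a group. In them 94% of changes of 1 on the log2 scale were recovered in adult leaf and 100% in 2 h high. The adult leaf arrays themselves had probe SDs of 0.24 and 0.54 and correlated at -0.181, so these shares do not give the power of the fits. Alternatives tried were block centring, scale normalization, exchanged arrays turned, no orientation term, array weights, fewer arrays, complete probes, averaging the probes of a gene and leaving out each array.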

Additional observations from a re-analysis of the deposited data

Results flagged for a closer look

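As deposited, EF1A probe AW202492 was above 0 on both 4 h medium arrays (0.01 and 0.26) and below 0 on both 8 h high arrays (-0.03 and -0.01). The difference of the means was 0.15, and it was not tested. Probe tif5A was below 0 on both 2 h high arrays (-0.13 and -0.14) and above 0 on both adult leaf arrays (0.07 and 0.19). The difference was -0.26, between tables that were normalized separately, and it was not tested. With exchanged arrays turned neither pattern is present. No group held 4 or more distinct arrays, so none was examined for a sample far from the rest.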

How the results depend on the processing

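The count of member probes past the threshold was 0 in each comparison and became 1 under few settings. Array weights gave 1 in 2 h high and 1 in the F test over 3 regimes, both EF1A probe AI855174 (adjusted p = 0.0124 in the F test, limma). Over all probes that setting called 2685 in place of 698 in 2 h high and 1144 in place of 287 in the F test. Leaving out 1 array gave a range of 0 to 1 in adult leaf (elfa2, without array 1 and without the replicate block), 8 h low, 8 h high minus 8 h low, 2 h high minus 8 h low, 4 h medium minus 8 h low and the F test (all AI855174), and 0 elsewhere. Without array 1 of 8 h low, AI855174 was at 1.11 in 8 h high minus 8 h low and 1.23 in 4 h medium minus 8 h low. The F test passed without array 1 of 8 h low, of 2 h high or of 4 h medium. Such fits leave 1 array in a group, and the counts over all probes moved as well, as given below. The cause was not tested.

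The orientation term pairs the arrays by their number and serves as the replicate block. With no replicate block the count was 0 member probes in every comparison. Of 617 member values recomputed under the alternatives 9 passed, and 83 that passed under neither setting changed sign, among them 30 of the 42 with the exchanged arrays turned. That reading gave 0 calls over all probes in every comparison.

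Over all probes the counts moved more, from 0 to 2685 around 698 in 2 h high, 0 to 756 around 15 in 4 h medium, 0 to 1015 around 11 in 8 h low, 0 to 397 around 189 in 8 h high and 0 to 493 around 31 in adult leaf. Of 24 member values in organs with 1 profile and PE-covered leaf, 16 were below 0, against 15 to 16 under other centring or the fuller seedling column. With exchanged arrays turned 13 were (added after the data were seen), a count that depends on which column of a repeated profile was used. Fits of only the arrays compared could not be made with the orientation term for a single group, which leaves 0 residual degrees of freedom, and were made without it, a choice added after the data were seen, as were the leaf fits that leave out an array. Array weights in the leaf fit were equal by construction. The tables used here hold no intensities, so dim spots were not assessed.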
